A study of Mus musculus with 6 samples.

Results

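Receptor tyrosine kinases are cell-surface proteins that bind a growth factor, a matrix protein or another ligand outside the cell and pass the signal on through a kinase domain inside it. The 34 genes described here are the listed members of that superfamily other than the Eph receptors, found by Ensembl number and its symbol among the 51826 genes of the deposited tables. All 34 were present. They were listed by gene name and not by a rule on measured values, though earlier results of these data were known at that point. They were read in 3 Het cultures of mouse embryonic fibroblasts (MEFs, connective-tissue cells grown from embryos), labelled Lztr1 +/- and numbered 11, 15 and 18. They were set against 3 WT cultures, labelled Lztr1 +/+ and numbered 10, 12 and 16. All 6 had the C57BL/6 strain background and one passage range, P2-5, and were grown without any stated treatment in glutamine-supplemented DMEM. The structure of the Lztr1 allele, the age and sex of the embryos and the number of embryos or litters are not given in the sources used. P-values therefore measure the spread among the 6 cultures, some of which may be technical.

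Ligand binding brings receptor chains together, they phosphorylate each other, and adaptor proteins such as GRB2 then bring the exchange factor SOS to RAS at the membrane. LZTR1, the protein encoded by Lztr1, brings RAS-family proteins to a CUL3-based ubiquitin ligase, a step below these receptors. In fibroblasts the PDGF and FGF receptors are known for driving growth and migration, the discoidin domain receptors (DDR) for sensing collagen, and AXL for survival signals. The comparison addresses which receptors these fibroblasts express and whether their transcripts differ between Het and WT cultures.

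The promoters of 5 receptors show how unlike their start regions were, and they are printed because 2 belong to receptors among the 4 highest and 3 to receptors that lie side by side in the genome at unequal levels. Each is the 250 bases before the start of the gene in RefSeq on GRCm38.p6, printed 5′ to 3′ on the strand of the gene, with CpG dinucleotides in capitals. The windows are chr7:25788734-25788983 on the minus strand for Axl, chr9:102834670-102834919 on the plus strand for Ryk, chr5:75152001-75152250 on the plus strand for Pdgfra, chr5:75574737-75574986 on the plus strand for Kit and chr5:75978456-75978705 on the minus strand for Kdr.
Axl: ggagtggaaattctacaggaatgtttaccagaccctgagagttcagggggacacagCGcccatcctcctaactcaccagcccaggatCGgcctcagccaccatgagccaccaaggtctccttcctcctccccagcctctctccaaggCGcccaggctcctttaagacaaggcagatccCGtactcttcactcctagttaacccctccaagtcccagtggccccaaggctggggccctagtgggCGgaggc
Ryk: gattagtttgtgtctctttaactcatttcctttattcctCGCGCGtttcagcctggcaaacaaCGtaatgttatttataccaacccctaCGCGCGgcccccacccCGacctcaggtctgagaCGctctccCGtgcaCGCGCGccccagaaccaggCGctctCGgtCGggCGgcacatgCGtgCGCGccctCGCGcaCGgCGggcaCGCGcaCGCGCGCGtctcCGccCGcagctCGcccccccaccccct
Pdgfra: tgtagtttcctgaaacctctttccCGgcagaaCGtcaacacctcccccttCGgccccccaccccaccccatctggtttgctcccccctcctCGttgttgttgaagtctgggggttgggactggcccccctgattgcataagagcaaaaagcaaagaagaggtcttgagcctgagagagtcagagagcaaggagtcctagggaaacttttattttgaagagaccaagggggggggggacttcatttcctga
Kit: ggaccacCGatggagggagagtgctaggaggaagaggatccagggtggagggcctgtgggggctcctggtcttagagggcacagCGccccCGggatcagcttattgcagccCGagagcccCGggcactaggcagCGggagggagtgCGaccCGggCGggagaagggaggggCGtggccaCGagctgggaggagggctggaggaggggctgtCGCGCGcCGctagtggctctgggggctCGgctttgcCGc
Kdr: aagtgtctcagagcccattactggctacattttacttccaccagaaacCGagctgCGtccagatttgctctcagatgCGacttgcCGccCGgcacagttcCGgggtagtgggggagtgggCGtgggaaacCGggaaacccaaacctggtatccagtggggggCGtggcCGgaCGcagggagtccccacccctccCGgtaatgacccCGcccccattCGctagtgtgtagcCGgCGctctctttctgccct
The Axl window held 5 CpG, an observed over expected ratio of 0.233, and the Ryk window 33, a ratio of 1.33, although both genes were among the 4 highest receptors. Pdgfra, Kit and Kdr follow each other on chromosome 5 with gaps of 377 kb and 276 kb and with 0 annotated protein-coding genes between them, and their windows held 4, 17 and 16 CpG. Their mean levels over the 6 cultures were 41.8 TPM for Pdgfra, 2.58 TPM for Kit and 4.16 TPM for Kdr.

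A RefSeq promoter was matched for 28 of the 34 receptors, and the other 6 were Erbb3, Fgfr1, Insr, Ntrk3, Pdgfrb and Ret. The median CpG ratio of the 28 windows was 0.549, beside 0.373 over the 32851 promoters of the table. It was 0.549 in the 12 receptors with a mean of 10 TPM or more and 0.551 in the 16 below that level, so this ratio did not separate high from low receptors. The letters GGGCGG, read on either strand, stood in 19 of the 28 windows (67.9%) and in 32.7% of all promoters. TATAAA stood in 3 receptor windows (10.7%) and in 12.4% of all, and TGANTCA in 2 (7.14%) and in 6.75% of all, both read on either strand. These are matches of letters in a window, not sites, and overlaps between motifs were not merged.

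Levels are given as deposited TPM, which is scaled for transcript length and library size and so can be compared between genes. Values run in the order of culture number, Het 11, 15 and 18 and then WT 10, 12 and 16. Of the 34 receptors, 27 reached 1 TPM in all 6 cultures, 3 in some of them and 4 in none. By mean TPM 4 receptors stood at 100 or more, 10 from 10 to 100, 15 from 1 to 10 and 5 under 1. Together they summed to 1124, 1174 and 1220 TPM in the Het cultures, against 1152, 1177 and 1075 TPM in the WT cultures. The 4 highest, Axl, Ptk7, Fgfr1 and Ryk, held 53.8% to 59.4% of that sum. Order within the list was loose: of 33 pairs of neighbours, 2 had ranges over the 6 cultures that did not overlap, Ryk above Pdgfrb and Ddr2 above Ddr1.

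**Figure D1:**
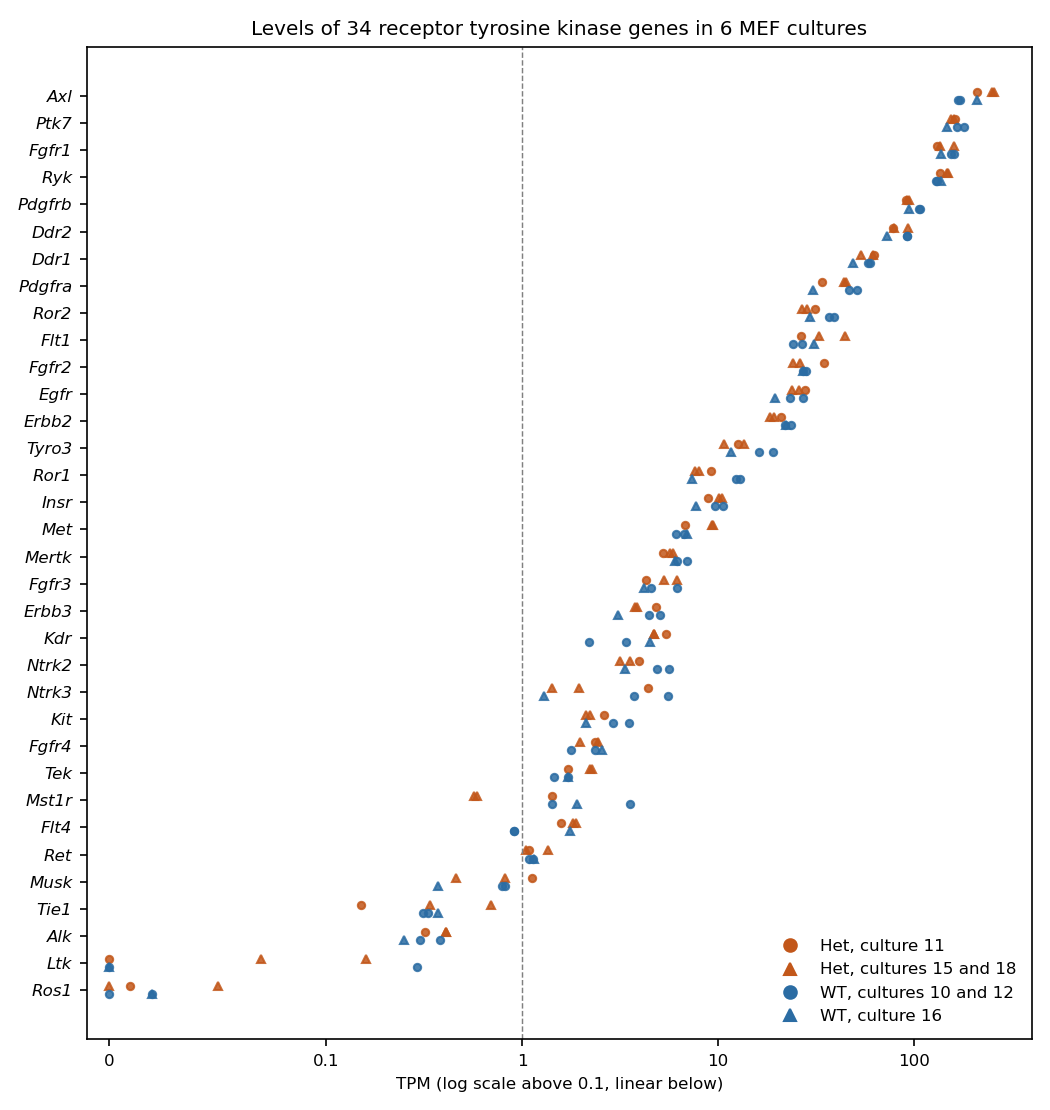
TPM (x axis, logarithmic above 0.1 and linear below) of each of the 34 receptor genes (y axis, ordered by mean), 1 point per culture, Het in orange above WT in blue, circles for cultures 10 to 12 and triangles for 15 to 18. The dashed line marks 1 TPM; 27 receptors lie right of it in all 6 cultures, and the points of both genotypes lie close together beside the spread between genes.

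The TAM family, named for Tyro3, Axl and Mertk, senses the phosphatidylserine-binding ligands GAS6 and PROS1. Axl was the highest receptor by mean, at 209, 249.96 and 256 TPM in the Het cultures, against 167, 172 and 209 TPM in the WT cultures. Het 11 and WT 16 were equal at this precision, and the other 2 Het cultures were above all WT cultures. Tyro3 measured 12.6, 10.7 and 13.6 TPM in the Het cultures, against 16.1, 19.1 and 11.6 TPM in the WT cultures, with WT 16 among the Het values. Mertk, best known for the uptake of dead cells by macrophages, measured 5.23, 5.89 and 5.65 TPM in the Het cultures, against 6.91, 6.13 and 6.04 TPM in the WT cultures, without overlap on this scale. Axl made up 87.2% to 93.8% of the family sum in every culture.

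The receptors known for non-canonical WNT signalling include 2 of the 4 highest genes. Ptk7, a catalytically inactive receptor of planar cell polarity, measured 163, 154 and 160.4 TPM in the Het cultures, against 166, 179 and 148 TPM in the WT cultures. Ryk, also a pseudokinase that binds WNT proteins, measured 136, 147 and 148 TPM in the Het cultures, against 132, 129 and 138 TPM in the WT cultures. Both pairs of groups overlapped, and neither gene varied much, with a coefficient of variation over the 6 cultures of 6.75% for Ptk7 and 5.74% for Ryk. Ror2, the WNT5A receptor of limb and skeletal development, measured 31.1, 26.6 and 28.3 TPM in the Het cultures, against 38.8, 36.9 and 29.3 TPM in the WT cultures. Ror1 lay lower, at 9.23, 7.96 and 7.58 TPM in the Het cultures, against 12.9, 12.3 and 7.36 TPM in the WT cultures. In both ROR genes WT 10 and WT 12 were above all Het cultures and WT 16 was in or near the Het range.

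Platelet-derived growth factor receptors, the classical mitogen receptors of mesenchyme, were led by Pdgfrb, at 91.4, 91.6 and 94.0 TPM in the Het cultures, against 106, 108 and 94.1 TPM in the WT cultures. The groups did not overlap, but Het 18 and WT 16 were almost level. Pdgfra measured 33.9, 43.9 and 44.7 TPM in the Het cultures, against 46.7, 51.4 and 30.5 TPM in the WT cultures, and Het 11 and WT 16 were the lowest of their groups. The ratio of Pdgfra to Pdgfrb ran from 0.324 to 0.479 over the 6 cultures. Kit, the receptor of stem cell factor and the genomic neighbour of Pdgfra, measured 2.61, 2.21 and 2.12 TPM in the Het cultures, against 2.91, 3.52 and 2.12 TPM in the WT cultures. Of 9 mast cell markers, 1 (Gata2) reached 1 TPM in all 6 cultures and Mcpt4, Tpsb2, Tpsab1 and Fcer1a were at 0 throughout; the markers summed to 6.02 to 8.77 TPM in Het and 6.74 to 11.4 TPM in WT cultures.

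Fibroblast growth factor receptors were dominated by Fgfr1, which held 76.0% to 83.0% of the family sum. It measured 131, 135 and 159 TPM in the Het cultures, against 154, 159 and 137 TPM in the WT cultures. Fgfr2 measured 34.9, 26.3 and 24.04 TPM in the Het cultures, against 27.2, 28.0 and 27.1 TPM in the WT cultures. Both overlapped between the genotypes, and Fgfr2 was highest in Het 11. Fgfr3, a brake on cartilage growth, measured 4.28, 5.29 and 6.19 TPM in the Het cultures, against 6.18, 4.52 and 4.16 TPM in the WT cultures. Fgfr4, known from liver and from muscle precursors, measured 2.36, 1.98 and 2.43 TPM in the Het cultures, against 2.34, 1.77 and 2.55 TPM in the WT cultures. These 2 also overlapped.

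The discoidin domain receptors bind collagen, the main product of fibroblasts. Ddr2, the form known from mesenchyme, measured 78.1, 93.2 and 79.1 TPM in the Het cultures, against 92.3, 91.9 and 73.1 TPM in the WT cultures. Ddr1, known chiefly from epithelium, was lower, at 62.1, 53.3 and 61.5 TPM in the Het cultures, against 58.4, 59.4 and 48.6 TPM in the WT cultures. Both genes overlapped between genotypes, and Ddr2 exceeded Ddr1 by 1.26 to 1.75 times in every culture. All 13 fibroblast markers reached 1 TPM in all 6 cultures. They summed to 11037 to 12468 TPM in Het and 11575 to 13582 TPM in WT cultures. All 12 macrophage and blood markers also reached 1 TPM in all 6 cultures, so this threshold does not tell cell types apart.

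Among the EGF receptor family, Egfr measured 27.7, 26.0 and 23.8 TPM in the Het cultures, against 23.4, 27.1 and 19.6 TPM in the WT cultures. Erbb2, which binds no known ligand and works as a partner chain, measured 20.9, 19.3 and 18.3 TPM in the Het cultures, against 23.5, 21.9 and 22.1 TPM in the WT cultures. The groups overlapped for Egfr and did not for Erbb2 on this scale. The ratio of Egfr to Erbb2 was 1.33, 1.34 and 1.303 in the Het cultures, against 0.994, 1.24 and 0.886 in the WT cultures. It was higher in each Het culture than in any WT culture. For such a difference the smallest p an exact permutation test can give is 0.1. Ratios were also taken for Pdgfra to Pdgfrb, Ddr2 to Ddr1, Fgfr1 to Fgfr2, Axl to Tyro3, Ror2 to Ror1 and Flt1 to Kdr. The genotypes overlapped in each of those, and no share over other gene pairs was computed. Egfr TPM also rests on an effective length that differed between cultures, as described further on. Erbb3, a neuregulin receptor with little kinase activity of its own, measured 4.81, 3.85 and 3.78 TPM in the Het cultures, against 5.07, 4.42 and 3.08 TPM in the WT cultures. Of 12 epithelial markers 8 reached 1 TPM in all 6 cultures and 0 were at 0 throughout, and their sum was 141 to 289 TPM in Het and 134 to 224 TPM in WT cultures.

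Met, the receptor of the scatter factor HGF, measured 6.78, 9.39 and 9.26 TPM in the Het cultures, against 6.10, 6.69 and 6.91 TPM in the WT cultures, and Het 11 lay among the WT values. Insr, the insulin receptor, measured 8.87, 10.5 and 10.1 TPM in the Het cultures, against 9.64, 10.6 and 7.69 TPM in the WT cultures. Its groups overlapped. Mst1r, the receptor of the MET-related ligand MST1, measured 1.42, 0.570 and 0.590 TPM in the Het cultures, against 3.56, 1.41 and 1.90 TPM in the WT cultures. Its TPM rests on 15 to 56 expected counts and on an effective length that differed up to 4.0-fold between cultures, as described further on.

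The VEGF receptors and TEK are best known from endothelium, and were detected here in a fibroblast setting. Flt1, a high-affinity receptor that can also be secreted as a decoy, measured 26.5, 32.8 and 44.2 TPM in the Het cultures, against 24.1, 26.7 and 30.8 TPM in the WT cultures, and made up 79.1% to 89.6% of the VEGF receptor sum. Kdr, the main signalling VEGF receptor of blood vessels, measured 5.44, 4.69 and 4.72 TPM in the Het cultures, against 3.40, 2.19 and 4.51 TPM in the WT cultures. Flt1 overlapped and Kdr did not, with WT 16 just below the Het values in Kdr. Flt4, the lymphatic VEGF receptor, measured 1.58, 1.88 and 1.81 TPM in the Het cultures, against 0.910, 0.910 and 1.75 TPM in the WT cultures, again with WT 16 beside the Het cultures. Tek, the angiopoietin receptor, measured 1.71, 2.26 and 2.22 TPM in the Het cultures, against 1.71, 1.45 and 1.72 TPM in the WT cultures, and Het 11 was level with the WT values. Tie1, an endothelial partner of TEK, stayed between 0.150 and 0.690 TPM. Of 12 endothelial markers 4 reached 1 TPM in all 6 cultures and 0 were at 0 throughout. The 12 summed to 54.4 to 60.2 TPM in Het and 59.5 to 69.7 TPM in WT cultures. The 4 were Eng at 24.2 to 31.2 TPM, Egfl7 at 12.3 to 21.2, Erg at 2.81 to 7.89 and Emcn at 3.18 to 4.87. Among the rest, Pecam1 had 0.890 to 3.08 TPM and Cdh5 0.770 to 2.87 TPM. The part of endothelial cells in the levels of these receptors was not tested, and in bulk RNA fewer cells of a type and less RNA per cell cannot be told apart.

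Receptors of neurons and muscle stood low. Ntrk2, the receptor of BDNF, measured 3.96, 3.17 and 3.56 TPM in the Het cultures, against 5.62, 4.89 and 3.34 TPM in the WT cultures. Ntrk3, the receptor of neurotrophin 3, measured 4.36, 1.95 and 1.42 TPM in the Het cultures, against 5.56, 3.70 and 1.29 TPM in the WT cultures. In both genes cultures 10, 11 and 12 were the highest of the 6, and WT 16 lay near Het 15 and 18. Ret, which works with GFRA co-receptors to bind the GDNF family, measured 1.08, 1.35 and 1.05 TPM in the Het cultures, against 1.13, 1.08 and 1.15 TPM in the WT cultures. Musk, the agrin-responsive organiser of the neuromuscular junction, ranged from 0.370 to 1.12 TPM, and Alk, a receptor of the developing nervous system, from 0.250 to 0.410 TPM. Ltk stayed at or under 0.290 TPM, with 0 to 4 expected counts a culture, and Ros1 at or under 0.05 TPM, with 0 to 2. Neural and Schwann markers, 9 of 12 at 1 TPM in all 6 cultures and 0 of them at 0 throughout, summed to 208 to 344 TPM in Het and 122 to 252 TPM in WT cultures. Skeletal muscle markers, 9 of 11 at 1 TPM in all 6 cultures and 0 at 0 throughout, summed to 235 to 313 TPM in Het and 243 to 374 TPM in WT cultures.

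Lztr1 itself checked the labels before the genotypes were compared. It measured 45.9, 45.1 and 43.8 CPM (counts scaled by library total and composition factor) in the Het cultures, against 93.9, 94.1 and 83.2 CPM in the WT cultures. Its log2 difference, Het over WT, came to -1.01 (SE 0.066) with an adjusted p (Benjamini-Hochberg) of 0.00457 in the quasi-likelihood test of edgeR, and this was the single gene called at an adjusted p under 0.05 among 14652 tested (0.00683%). The adjusted p was above 0.05 when any 1 culture other than WT 16 was left out, from 0.0616 to 0.0759. The libraries held 11025286 to 21885101 expected counts, with Het 11 the deepest.

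The culture WT 16 stood apart in receptor transcripts. On log2 CPM, 25 of the 32 receptors tested (78.1%) were nearer in WT 16 to the mean of the Het cultures than to that of the other WT cultures, a position shared by 61.6% of all genes tested in that culture. For Het 11 the count was 20 of 32 (62.5%), beside 48.4% of all genes, and in the other 4 cultures it was 6 to 9. A culture's own mean rests on 2 cultures and the other mean on 3, which favours the other one. Registration took place in 2 blocks, first 10, 12, 15 and 18 and later 11 and 16, and culture numbers fall into 2 runs, 10 to 12 and 15 to 18, patterns seen after the data were examined and not named as batches in the labels. Erythroid markers, 4 of 8 at 1 TPM in all 6 cultures and 0 at 0 throughout, were also split by run, at 199, 402 and 478 summed TPM in the Het cultures, against 148, 117 and 407 TPM in the WT cultures, and their part in the receptor values was not tested.

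By edgeR, 0 of the 32 receptors tested (Ltk and Ros1 did not pass the count filter) passed an adjusted p under 0.05, and DESeq2 also called 0. At an unadjusted p under 0.05 edgeR had 8 receptors (25%), beside 12.2% of all genes tested, 4 of them higher in Het cultures, beside 5.56% of all genes, and 4 lower, beside 6.65%. DESeq2 had 8 as well, beside 8.94% of all genes, with Flt1 in place of Erbb2. Of these, 5 were higher in Het cultures, beside 4.65% of all genes, and 3 lower, beside 4.29%. Over the 32 receptors 18 differences were positive and 14 negative, with a median log2 difference of 0.05 and a median size of 0.19, beside 0.12 over all genes. CPM values did not overlap between genotypes in 4 receptors (12.5%), beside 17.7% of all genes: Egfr, Kdr and Fgfr4 were higher in Het cultures, beside 7.75% of all genes, and Pdgfrb was lower, beside 9.97%. The count at an unadjusted p under 0.05 depended on single cultures: it was 7 without Het 11 (beside 12.7% of all genes), 1 without Het 15 (8.07%), 1 without Het 18 (7.37%), 1 without WT 10 (6.2%), 2 without WT 12 (7.6%) and 14 without WT 16 (23.6%). Egfr was among them in each of these 6 fits, all on counts, but not with the effective length as an offset or on TPM. Fewer cultures separate more easily, and receptors whose groups did not overlap then numbered 14 without Het 11 (beside 31.6% of all genes), 7 without Het 15 (26.1%), 5 without Het 18 (24%), 5 without WT 10 (23.5%), 7 without WT 12 (25.2%) and 20 without WT 16 (43.5%).

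**Figure D2:**
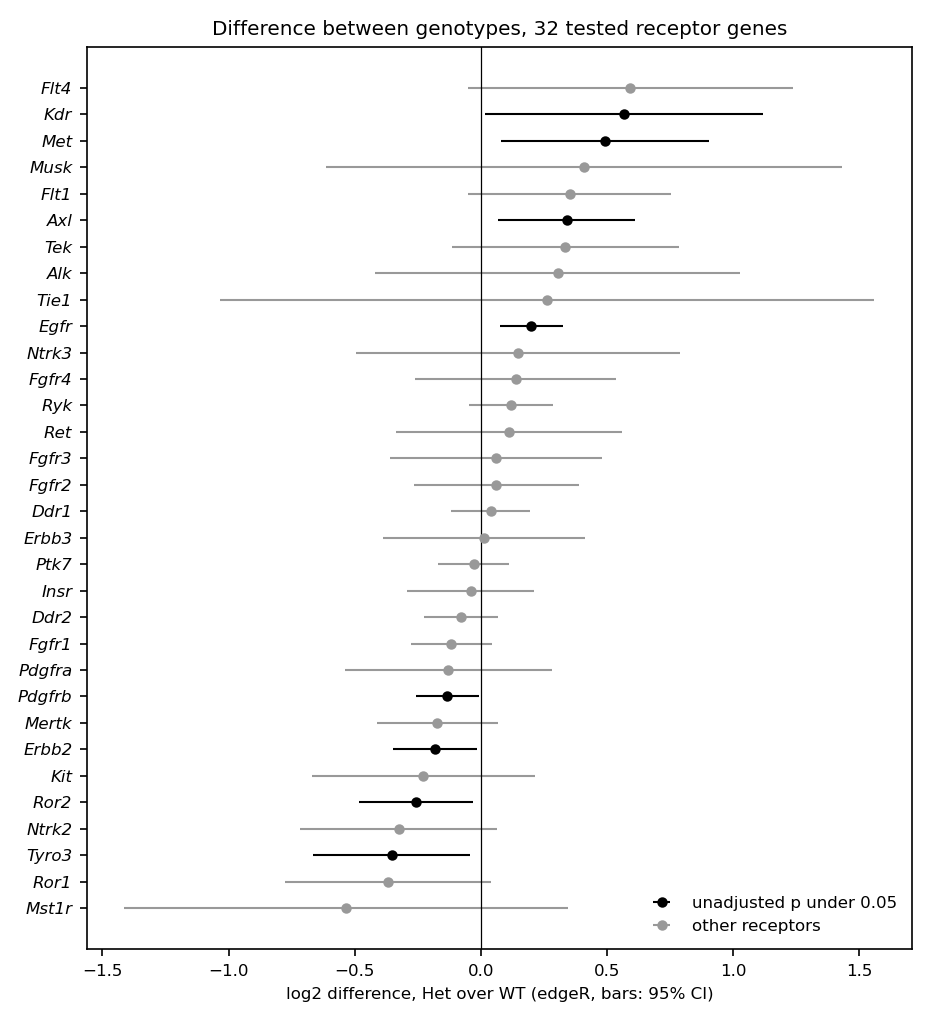
Log2 difference, Het over WT (x axis), of the 32 tested receptor genes (y axis), points from edgeR's fit and bars the 95% confidence interval, black where the unadjusted p was under 0.05. The 8 black intervals stay clear of 0 by construction, since interval and p come from the same test. The margin is smallest for Pdgfrb, Erbb2 and Kdr, and no receptor passed the adjusted threshold.

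The 4 receptors with an unadjusted p under 0.05 and higher values in Het cultures are protein-coding genes placed in mm10 as follows: Egfr (ENSMUSG00000020122.16, chromosome 11, 16752203 to 16918158, plus strand), Axl (ENSMUSG00000002602.16, chromosome 7, 25757273 to 25788705, minus strand), Met (ENSMUSG00000009376.15, chromosome 6, 17463800 to 17573980, plus strand) and Kdr (ENSMUSG00000062960.10, chromosome 5, 75932827 to 75978458, minus strand). On the count scale Egfr had the smallest p of the receptors. It measured 131, 123 and 128 CPM in the Het cultures, against 107, 114 and 112 CPM in the WT cultures, and the groups did not overlap. The log2 difference was 0.20 (SE 0.054, 95% confidence interval 0.08 to 0.32), with an adjusted p of 0.313 by edgeR. Its sign was the same within the runs 10 to 12, 0.25, and 15 to 18, 0.16, and within the first block, 0.19, and the later pair, 0.22. In TPM the groups overlapped, and RSEM's effective length of Egfr, an average over its isoforms that TPM is divided by, ran from 7109 to 8965 bases between cultures.

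Axl measured 475, 564 and 549 CPM in the Het cultures, against 377, 381 and 497 CPM in the WT cultures. WT 16 lay inside the Het range, and WT 10 and WT 12 lay below it. The log2 difference was 0.34 (SE 0.119), and edgeR gave an adjusted p of 0.341. Met had the same layout, at 27.6, 37.2 and 32.2 CPM in the Het cultures, against 22.1, 17.7 and 29.0 CPM in the WT cultures, a log2 difference of 0.49 (SE 0.18) and an adjusted p of 0.359. Kdr measured 19.1, 16.9 and 16.5 CPM in the Het cultures, against 11.8, 7.43 and 16.4 CPM in the WT cultures. Its groups did not overlap, by a narrow gap at WT 16, with a log2 difference of 0.57 (SE 0.24) and the adjusted p at 0.398.

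The 4 with lower values in Het cultures are Tyro3 (ENSMUSG00000027298.17, chromosome 2, 119797733 to 119818104, plus strand), Ror2 (ENSMUSG00000021464.14, chromosome 13, 53109312 to 53286124, minus strand), Erbb2 (ENSMUSG00000062312.5, chromosome 11, 98412470 to 98437716, plus strand) and Pdgfrb (ENSMUSG00000024620.11, chromosome 18, 61045150 to 61085061, plus strand), also in mm10. Tyro3 measured 29.3, 25.5 and 27.8 CPM in the Het cultures, against 36.8, 40.9 and 27.9 CPM in the WT cultures. Its log2 difference was -0.35 (SE 0.13), and edgeR gave an adjusted p of 0.368. Ror2 measured 70.6, 63.5 and 64.0 CPM in the Het cultures, against 88.2, 81.1 and 67.7 CPM in the WT cultures, with a log2 difference of -0.26 (SE 0.098) and an adjusted p of 0.368. In both, WT 16 lay inside the Het range and WT 10 and WT 12 above it. Erbb2 measured 60.2, 55.5 and 52.3 CPM in the Het cultures, against 66.0, 60.0 and 64.8 CPM in the WT cultures, with a log2 difference of -0.18 (SE 0.072) and an adjusted p of 0.378, and Het 11 and WT 12 crossed. Pdgfrb measured 293, 300.3 and 299 CPM in the Het cultures, against 334, 331 and 313 CPM in the WT cultures. Its groups did not overlap, with a log2 difference of -0.13 (SE 0.054) and the adjusted p at 0.390.

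**Figure D3:**
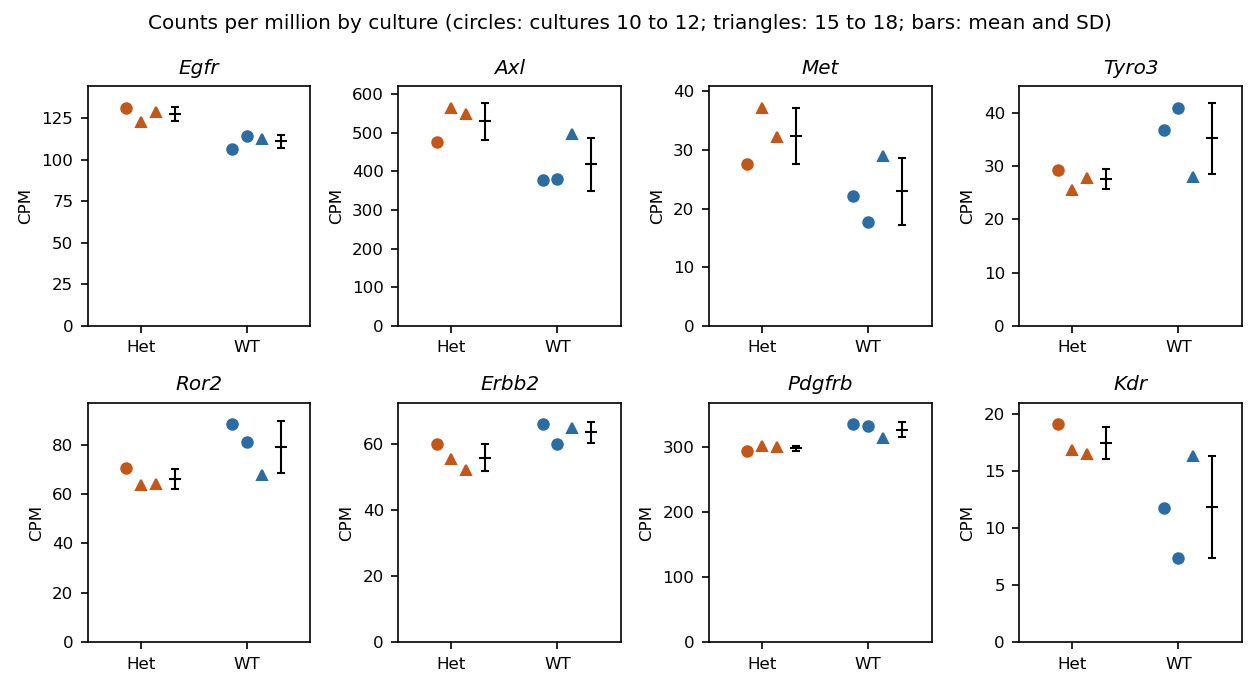
CPM (y axis, from 0) of the 8 receptors with an unadjusted p under 0.05, 1 point per culture, Het in orange left of WT in blue, circles for cultures 10 to 12 and triangles for 15 to 18, with the mean and SD of each genotype beside them. The WT triangle, culture 16, sits at the height of the Het points for Axl, Met, Tyro3 and Ror2 and apart from them for Egfr, Erbb2 and Pdgfrb.

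Receptors with differences of similar size did not reach that p. Flt4 measured 5.90, 7.15 and 6.70 CPM in the Het cultures, against 3.31, 3.27 and 6.59 CPM in the WT cultures, a log2 difference of 0.59 (SE 0.28) and an adjusted p of 0.439 by edgeR. Ror1 measured 31.7, 27.9 and 25.7 CPM in the Het cultures, against 43.5, 40.6 and 26.2 CPM in the WT cultures, a log2 difference of -0.37 (SE 0.18). Both show the split between WT 16 and the other WT cultures. The 95% confidence interval of the log2 difference was 0.07 to 0.61 for Axl, the receptor with the highest TPM, -0.17 to 0.11 for Ptk7, -0.28 to 0.04 for Fgfr1, -0.05 to 0.29 for Ryk, -0.22 to 0.07 for Ddr2 and -0.12 to 0.20 for Ddr1. Tie1, with an interval of -1.03 to 1.56, and Musk, with -0.62 to 1.43, had the widest intervals of the 32.

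Without WT 16 edgeR called 7 of 32 receptors (21.9%), beside 5.93% of all genes. Axl (log2 difference 0.49), Met (0.69), Kdr (0.86) and Flt4 (1.00) were higher in Het cultures, beside 3.69% of all genes in that direction, and Tyro3 (-0.49), Ror2 (-0.35) and Ror1 (-0.55) were lower, beside 2.24%. Their adjusted p ran from 0.0183 to 0.0440. In the first block alone, Het 15 and 18 against WT 10 and 12, edgeR called 9 receptors (28.1%), beside 9.83% of all genes. Axl, Met, Flt1, Flt4 and Ryk were higher there, beside 5.45% of all genes, and Tyro3, Ror1, Ror2 and Ntrk2 lower, beside 4.39%, with adjusted p from 0.00326 to 0.0390. The later pair, with 1 culture per genotype and so no test, had the opposite sign for Axl (-0.07), Met (-0.07), Tyro3 (0.07) and Ror2 (0.06), and the same sign as the full comparison for Egfr, Kdr, Erbb2 and Pdgfrb. Within the run 15 to 18 all 8 kept their sign, at sizes from 0.03 for Kdr to -0.27 for Erbb2. Whether block or run contributes to these differences was not tested beyond these subsets and the fit with the run as a term, in which Axl, Egfr, Met, Ror2 and Tyro3 had an unadjusted p under 0.05.

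**Figure D4:**
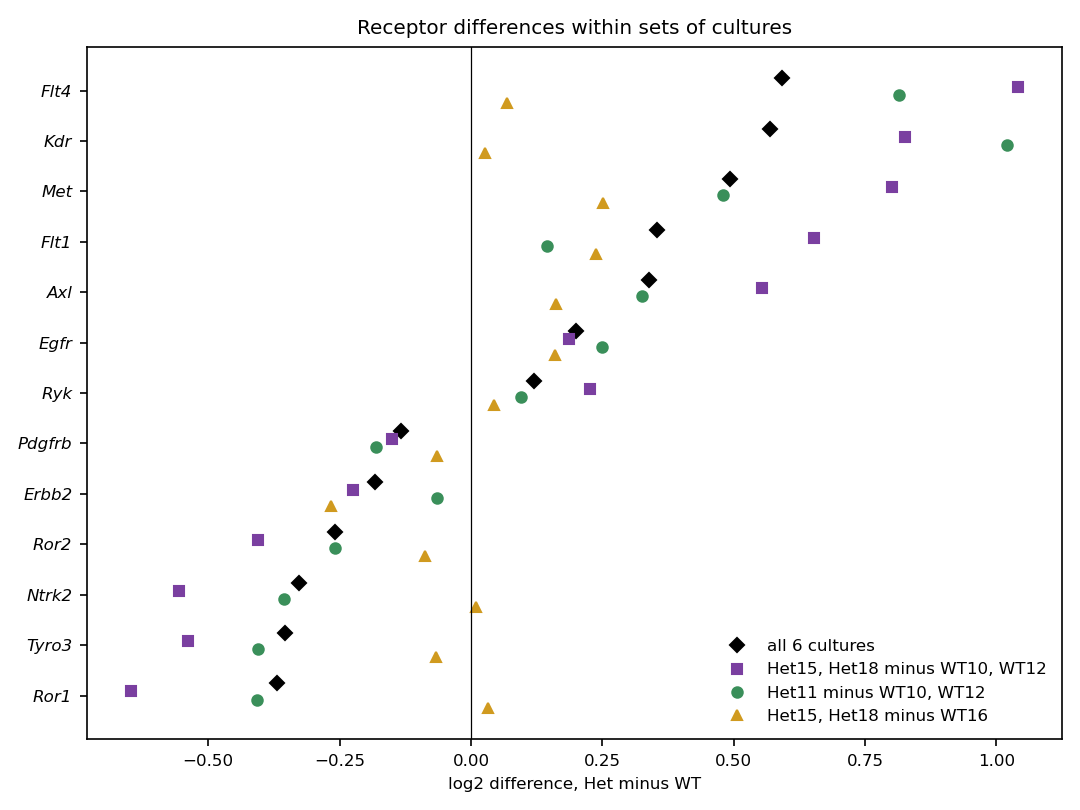
Log2 difference, Het minus WT (x axis), of the 13 receptors that had an unadjusted p under 0.05 or were called in a subset of the cultures (y axis), over all 6 cultures (diamonds), Het 15 and 18 minus WT 10 and 12 (squares), Het 11 minus WT 10 and 12 (circles) and Het 15 and 18 minus WT 16 (triangles). Squares lie farther from 0 than triangles for every gene but Erbb2, and the triangles of Kdr, Ryk, Ror1 and Ntrk2 lie near 0.

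Some receptor levels depend on how RSEM shared reads between isoforms. The ratio of the highest to the lowest effective length over the 6 cultures was 4.0 for Mst1r, 2.92 for Ntrk3, 1.84 for Musk, 1.48 for Met, 1.46 for Fgfr4, 1.29 for Fgfr3, 1.26 for Egfr and 1.25 for Insr. For Ntrk3 the log2 difference was 0.15 on counts and -0.40 with the effective length as an offset, and for Insr -0.04 and 0.10, so their direction depends on this step. Among these receptors Mst1r had an unadjusted p under 0.05 with that offset and not on counts. Egfr went the other way: its unadjusted p was 0.00601 on counts, 0.117 with the offset and 0.273 by limma on log2(TPM + 1), with log2 differences of 0.20, 0.17 and 0.15. Annotated genes of any kind overlap 18 receptors, but protein-coding ones overlap 2: Erbb2 overlaps Mien1, and the annotated span of Fgfr2 covers 30 protein-coding genes. No source used here gives the strand setting of the counting. Expected counts were whole in all 6 cultures for 32 receptors, Erbb2 among them, and fractional for Pdgfra and Fgfr2.

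Ligand genes were read for many of the receptor families, but no ligand of the insulin receptor or of the DDR family was listed. Mst1, the ligand of Mst1r, reached at most 0.73 TPM. Of 47 ligand genes listed, 41 were tested and 0 were called by edgeR or by DESeq2, and 8 (19.5%) had an unadjusted p under 0.05 by edgeR, beside 12.2% of all genes. Their median log2 difference was -0.0048, with 20 positive and 21 negative. Pleiotrophin (Ptn) and midkine (Mdk), which bind heparan sulphate and several receptors, had the highest levels by TPM. Ptn measured 640, 705 and 523 TPM in the Het cultures, against 833, 979 and 675 TPM in the WT cultures, and Mdk 482, 389 and 387 TPM in the Het cultures, against 572, 568 and 487 TPM in the WT cultures. The receptor at which both have been proposed to act, Alk, stayed under 1 TPM. Gas6, the ligand of the TAM receptors, measured 89.4, 91.0 and 100.2 TPM in the Het cultures, against 122, 135 and 99.5 TPM in the WT cultures, and Het 18 and WT 16 crossed. Axl and its ligand Gas6 were expressed by the same cultures.

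By CPM Gas6 was separated between genotypes, at 129, 134 and 143 CPM in the Het cultures, against 173, 187 and 149 CPM in the WT cultures, with a log2 difference of -0.32 (SE 0.086) and an adjusted p of 0.313 by edgeR. Mdk had a log2 difference of -0.34 (SE 0.092), Angpt1, the activating ligand of TEK, -0.67 (SE 0.21), and Vegfb, a ligand of FLT1, -0.44 (SE 0.14). Hgf, the ligand of MET, stood at 9.08, 8.92 and 9.24 CPM in the Het cultures, against 11.7, 14.7 and 10.2 CPM in the WT cultures, a log2 difference of -0.42 (SE 0.15), and Ptn at -0.38 (SE 0.14). The other 2 ligands with an unadjusted p under 0.05 were Ereg, epiregulin, at 1.01 (SE 0.37) and Nrg1, neuregulin 1, at 0.29 (SE 0.12); both were higher in Het cultures, and they are named after their values were seen, outside the 6 smallest p. None passed the adjusted threshold. Without WT 16 edgeR called 7 ligands, beside 5.93% of all genes: Bdnf, Ereg, Hbegf and Pdgfb were higher in Het cultures, beside 3.69%, and Angpt1, Gas6 and Vegfb lower, beside 2.24%.

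The ligands with the highest TPM of the other families were Pdgfc, Hbegf, Fgf7, Vegfa, Angpt2, Wnt5a, Kitl, Bdnf, Nrtn and Agrn. Wnt5a, the ligand of the ROR receptors, measured 64.7, 67.6 and 65.5 TPM in the Het cultures, against 75.8, 82.2 and 66.5 TPM in the WT cultures. Hbegf, a ligand of EGFR, measured 55.9, 55.9 and 48.7 TPM in the Het cultures, against 31.2, 27.4 and 68.5 TPM in the WT cultures, and WT 16 was the highest of all 6. Pdgfc ran from 57.3 to 76.8 TPM in Het and 71.3 to 73.0 TPM in WT cultures, and Vegfa from 38.7 to 50.9 TPM in Het and 41.1 to 60.8 TPM in WT cultures. Fgf7, known for signalling to epithelium through FGFR2, ran from 19.4 to 32.4 TPM in Het and 16.2 to 25.7 TPM in WT cultures. Kitl ran from 8.14 to 8.91 TPM in Het and 7.04 to 8.80 TPM in WT cultures. The genotypes overlapped in each of these 6 genes.

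**Figure D5:**
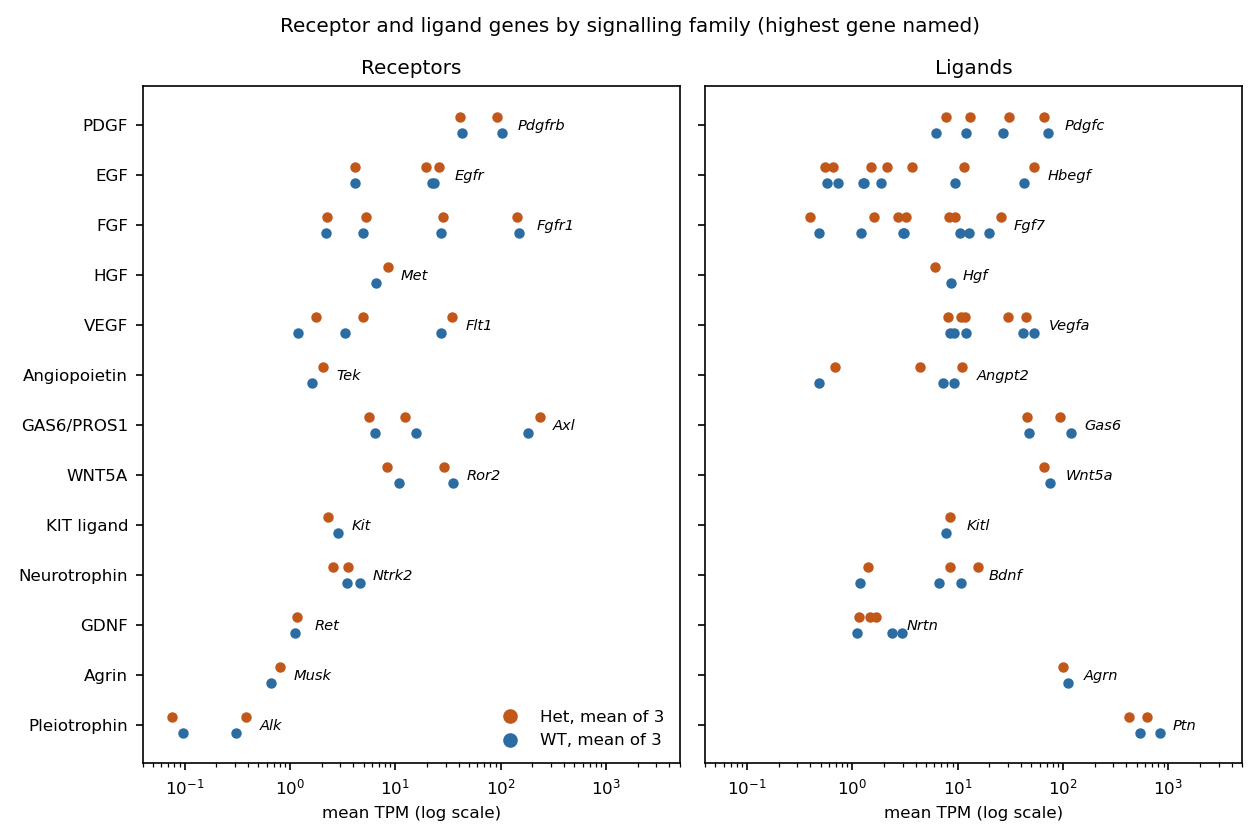
Mean TPM (x axes, logarithmic) of receptor genes (left) and ligand genes (right) by signalling family (y axis), Het in orange above WT in blue, each point the mean of 3 cultures, with the highest gene of each row named. Pleiotrophin and midkine exceed by far Alk and Ltk, the receptors drawn in the same row, whereas Axl lies above its ligand Gas6. Alkal1 and Alkal2, in the ligand list but not drawn, had means over the 6 cultures of 2.04 and 0.0783 TPM.

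Co-receptors and the proteins just inside the membrane were read from lists as well. Of 16 co-receptors 14 were tested and edgeR called 0, with 2 at an unadjusted p under 0.05 (14.3%), beside 12.2% of all genes. Nrp1, a neuropilin that binds VEGF with KDR and FLT1, measured 153, 152 and 131 CPM in the Het cultures, against 118, 118 and 122 CPM in the WT cultures. The groups did not overlap, the log2 difference was 0.29 (SE 0.069) and the adjusted p 0.313 by edgeR, and DESeq2 called it at an adjusted p of 0.0467. Cd44, a hyaluronan receptor that presents growth factors to MET and ERBB chains, measured 298, 384 and 370.2 CPM in the Het cultures, against 211, 192 and 338 CPM in the WT cultures, a log2 difference of 0.50 (SE 0.20). The next by p were Gfra4 (-0.45), Fgfrl1 (-0.17), Lrig1 (0.09) and Lrig3 (-0.13), at unadjusted p from 0.0990 to 0.228.

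All 38 adaptors and effectors were tested, edgeR called 0, and 6 (15.8%) had an unadjusted p under 0.05, beside 12.2% of all genes, and 5 of them were higher in Het cultures, beside 5.56% of all genes. Irs1, the docking protein of the insulin receptor, measured 60.8, 63.6 and 63.9 CPM in the Het cultures, against 48.4, 49.9 and 49.4 CPM in the WT cultures, a log2 difference of 0.35 (SE 0.055) and an adjusted p of 0.305 by edgeR. Cbl, a ubiquitin ligase that marks activated receptors for degradation, measured 112, 117 and 119 CPM in the Het cultures, against 86.8, 95.5 and 94.0 CPM in the WT cultures, a log2 difference of 0.33 (SE 0.057). Pik3cb, a catalytic subunit of PI3-kinase, had a log2 difference of 0.56 (SE 0.12), and Frs2, the docking protein of FGF receptors, 0.21 (SE 0.054). In these 4 genes, named for their small p, no Het value lay inside the WT range. Groups did not overlap in 10 of the 38 (26.3%), beside 17.7% of all genes. Of the 10, 7 were higher in Het cultures, beside 7.75% of all genes, and 3 lower, beside 9.97%. WT 16 sat with the other WT cultures in Irs1, Cbl and Frs2, unlike in Axl or Met. Pik3cb measured 21.8, 20.0 and 18.7 CPM in the Het cultures, against 12.6, 12.8 and 15.7 CPM in the WT cultures. There WT 16 lay between the other WT cultures and the Het values. Of these 4 genes DESeq2 called 3, Cbl at an adjusted p of 0.00702, Irs1 at 0.0140 and Pik3cb at 0.0342. It called 0.765% of all genes. Ptprj, a phosphatase of receptors, had 0.21 (SE 0.089), and Plcg1, phospholipase C gamma, -0.16 (SE 0.060). Of the Eph receptors, the related family set aside here, 3 of 11 tested (27.3%) had an unadjusted p under 0.05, beside 12.2% of all genes, and 0 were called.

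Markers of other cell types that the cultures could hold were read beside these values. All 12 macrophage and blood markers reached 1 TPM in all 6 cultures, and they summed to 290 to 525 TPM in Het and 370 to 466 TPM in WT cultures. Mural markers, 7 of 8 at 1 TPM in all 6 cultures with Higd1b at 0 throughout, summed to 256 to 296 TPM in Het and 218 to 264 TPM in WT cultures. Their part in the levels of Axl, Mertk or Pdgfrb was not tested. Of the 13 fibroblast markers 9 were lower in Het cultures and 4 higher, and edgeR called 0. By edgeR 4 (30.8%) had an unadjusted p under 0.05, all lower, beside 6.65% of all genes. These were Lum (log2 difference -0.79), Dcn (-0.64), Twist1 (-0.25) and Col1a1 (-0.25). Dcn measured 88.4, 86.6 and 84.9 TPM in the Het cultures, against 169, 167 and 79.9 TPM in the WT cultures. Their link to the receptor differences was not tested.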

How the data were processed

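Messenger RNA was sequenced from 3 Het and 3 WT cultures, with libraries made with an Illumina TruSeq kit per the labels' protocols. The authors deposited expected counts, TPM and FPKM per gene, which per the file headers are RSEM estimates; per the submitters' processing notes, RSEM version 1.3.1, DESeq2 and the build mm10 were used. No source used here gives the annotation release, aligner or strand setting. The deposited expected counts share reads between genes and isoforms, and 7.53% to 8.80% of values per library had a fraction. TPM as deposited is scaled for effective length, so isoform estimates move them, and the deposited FPKM values were used for 1 alternative threshold of expression.

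The 34 receptors and the ligand, co-receptor, adaptor and marker lists were chosen with earlier results of these data known. Symbols were matched by Ensembl number to GENCODE on mm10, which named 51633 of 51826 genes. Rounded expected counts were filtered with filterByExpr, which left 14652 genes, scaled by TMM and compared with edgeR 4.0.16 (quasi-likelihood F test, no covariates, R 4.3.3), with Benjamini-Hochberg adjustment over all genes tested. SE values belong to the fitted log2 difference. Alternatives used DESeq2 1.42.0, limma 3.58.1 on log2(TPM + 1) and log2(TPM + 0.1), other scalings and filters, effective lengths, culture runs or Y-linked expression as a term, and subsets of cultures. The steps were tested on simulated counts. Library totals were 11025286 to 21885101 and the biological coefficient of variation 11.3%; a count of 3 equalled 0.137 to 0.272 CPM, which covers counting error only.

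Values in every culture were given for receptors with 1 TPM or more in all 6 cultures or an unadjusted p under 0.05. Of each partner list the 6 smallest p were named, and for ligands also the highest TPM of each receptor family; receptors called in a subset of cultures were added after their values were seen.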

Additional observations from a re-analysis of the deposited data

How the results depend on the processing

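No paired analysis was run because the sources used give no litter or other pairing of Het with WT cultures. Over 28 receptors and 18 partner genes and 17 alternatives, 758 of 782 log2 differences had the direction of the full comparison and 24 reversed. The alternatives reuse the same 6 cultures or some of them, and the 18 partner genes were picked for small p. Most signs were therefore likely to stay the same from the outset, and no share over all genes was computed. All 24 reversals were in Ddr1, Erbb3, Fgfr2, Fgfr3, Insr, Ntrk3 and Ptk7, whose differences over all 6 cultures lay between -0.04 and 0.15. With library totals alone Erbb3 was -0.016. Insr was 0.10 with effective lengths as an offset, 0.074 on log2(TPM + 1) with and without the filter and 0.082 on log2(TPM + 0.1), and Ntrk3 was -0.40, -0.29, -0.29 and -0.37 there. With the culture run as a term Ptk7 was 0.00085. In the first block alone Ddr1 was -0.047, Erbb3 -0.27, Fgfr2 -0.071, Fgfr3 -0.055 and Ntrk3 -0.25. Leaving out 1 culture gave -0.0099 to 0.096 for Ddr1, -0.14 to 0.18 for Erbb3, -0.11 to 0.20 for Fgfr2, -0.083 to 0.27 for Fgfr3, -0.14 to 0.071 for Insr, -0.12 to 0.34 for Ntrk3 and -0.067 to 0.019 for Ptk7.

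Lztr1 was -0.91 at an adjusted p of 0.0852 with effective lengths, -0.92 on log2(TPM + 1) and -0.94 on log2(TPM + 0.1), and ranged from -1.06 to -0.97 when 1 culture was left out. DESeq2 called 112 genes (0.765% of all genes), 1 of 14 co-receptors and 3 of 38 adaptors. Without the low-count filter 32 genes (0.127%) were called, and with effective lengths or TPM 0. The first block alone had 1450 genes called (9.83%), with 9 of 32 receptors (28.1%), 9 ligands, 2 co-receptors and 9 adaptors among them. With 1 culture left out 0 to 896 genes were called. Receptors numbered 0 to 7, ligands 0 to 7, co-receptors 0 to 1 and adaptors 0 to 6. Each count was highest without WT 16, where 5.93% of all genes were called. Receptors at an unadjusted p under 0.05 numbered 8 with DESeq2 size factors (beside 12.3% of all genes) and 8 with library totals alone (12.8%). By edgeR without the low-count filter there were 11 of 34 (32.4%, beside 9.19%), and with Y-linked expression as a term 6 (10.1%). The count was 5 with effective lengths (11.1%), 2 on log2(TPM + 1) (11.6%), 3 on log2(TPM + 0.1) (11.5%) and 4 without a filter on TPM (7.99%). It was 5 with the run as a term (11.3%), 17 in the first block (27.4%) and 1 to 14 with 1 culture left out. Groups did not overlap in 5 to 20 receptors with 1 culture left out. The causes of these changes were not tested. Expressed receptors numbered 23 to 29 under the other thresholds. Receptors under 1 TPM rest on few counts, which limits their precision.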
